A study of Mus musculus with 2 samples.

Results

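The genes Il1f9, Sptbn5, Arl9 and Vpreb1 had a lower CpG methylation level at 1 gene end in the mouse haploid embryonic stem cell line A129-2 than in the line AOS-14. These 4 genes were picked by name, out of 49993 placed genes, because the mean level near 1 gene end was lower in A129-2 by 25 percentage points or more in these same libraries. Every CpG from 5 kb outside the gene start to 5 kb outside the gene end was then read out, and 88 of the 253 CpGs listed there had at least 10 reads in both lines. These 88 CpGs are described below, out of 1030368 compared in the whole series. Since the differences chose the genes, and since each line has 1 library, no difference carries a test. Intervals are exact (Clopper-Pearson) 95% binomial intervals of the reads and cover counting error only, and reads that cover several CpGs or come from copies of 1 molecule are not independent.

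A129-2 was made on the strain 129Sv and AOS-14 on C57BL/6. Both are embryonic stem cell lines obtained by cell sorting from AG-haploid embryos, taken here to mean androgenetic embryos, whose single chromosome set comes from sperm. Line, strain and library cannot be told apart. The series title names RRBS, which cuts DNA with MspI at CCGG, while the protocol in the labels describes capture of about 100 Mb, followed by bisulfite treatment and paired reads of 50 bp. The A129-2 library held 153035567 read calls at CpGs and the AOS-14 library 178315194. Over the compared CpGs A129-2 averaged 9.48% and AOS-14 15%, which is a ratio of 0.632, with means of 18.9% and 27.9% inside CCGG and 4.74% and 8.49% outside it. No RNA was measured, so neither the cell type nor the tissue restriction of the 4 genes could be checked by expression. The median gene level with 5 kb flanks was 5.38% in A129-2 and 7.92% in AOS-14 over 10 genes that mark pluripotent cells, and 11.8% and 21.2% over 5 genes that mark fibroblasts, the usual feeder cells. Over 27756 genes the medians were 7.54% and 11.1%. The part of other cells in the results was not tested.

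In mammals a methyl group is added to cytosine mostly where a guanine follows it, and the maintenance enzyme Dnmt1 copies the mark to the new strand after replication. CpG islands at the starts of broadly expressed genes usually stay free of it, whereas CpG-poor starts of tissue-restricted genes, gene bodies and the sequence between genes usually carry it in somatic cells. Mouse embryonic stem cells can hold much lower levels, depending on culture. MspI cuts CCGG whether or not the inner cytosine is methylated, which is why RRBS reads begin at that motif.

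The 4 genes act in unrelated processes. Il1f9 encodes a secreted ligand of the interleukin-1 family that is made mainly by epithelial cells. Vpreb1 encodes part of the surrogate light chain of the precursor B cell receptor, in which it pairs with the product of Igll1. Sptbn5 encodes a large beta spectrin, a component of the membrane skeleton. Arl9 encodes a small GTPase-like protein of the ADP-ribosylation factor-like family.

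The end windows span 1 kb on the outer side and 0.5 kb on the inner side of whichever gene end had 2 or more times the listed CpGs of its opposite. The strand in RefSeq's promoter table for GRCm38.p6, the assembly of mm10, places these windows at opposite sides of the genes. For Il1f9 (gene ID 215257, plus strand, chr2:24186476-24193567), Sptbn5 (gene ID 640524, minus strand, chr2:120041493-120088913) and Vpreb1 (gene ID 22362, minus strand, chr16:16868401-16869255) the window lies at the 3′ end. For Arl9 (gene ID 384185, plus strand, chr5:77002744-77010959) it lies at the 5′ end. By the rule on CpG number the windows of 3 of the 4 genes thus lie at the end away from the start. At Vpreb1 this is not clear-cut. Its window CpGs 413, 474, 487 and 495 bp from the 5′ end also lie within 0.5 kb of that end. The Arl9 window covers the outer boundary of the gene and stops short of the start site in RefSeq's promoter table, which its 11 CpGs precede by 1427 to 1677 bp. Of 10754 windows chosen by CpG number whose gene has a strand, 629 (5.85%) lay at the 3′ end, and of the 30 among them that were lower in A129-2 by 25 points or more, 12 did.

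The RefSeq promoter sequences, which run from 250 bases before the start to 50 after it, held few CpGs for all 4 genes. They held 1 CpG for Il1f9, 3 for Sptbn5, 4 for Arl9 and 2 for Vpreb1, against a median of 7 over 32851 such entries. So few are common, since 38.0% of all these entries held 4 CpGs or fewer. Arl9 is the 1 gene of the 4 with a compared CpG inside this sequence, and it is printed because those CpGs carry the lower level right at the annotated start. The sequence (chr5:77003805-77004104, plus strand, 5′ to 3′) has its CpGs in capitals.
Arl9 promoter: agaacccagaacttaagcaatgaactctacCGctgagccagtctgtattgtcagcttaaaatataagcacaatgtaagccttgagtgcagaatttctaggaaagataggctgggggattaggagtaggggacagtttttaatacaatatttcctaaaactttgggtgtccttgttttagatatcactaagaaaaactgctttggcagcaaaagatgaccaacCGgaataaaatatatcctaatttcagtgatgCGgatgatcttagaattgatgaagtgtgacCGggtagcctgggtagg
The first CpG is not listed in either table. The other 3 are compared, and the second and the fourth sit in CCGG, a motif that reads the same on both strands and occurs in 52.8% of all promoter entries of this length.

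In the end windows A129-2 stood at a similar low level for all 4 genes. At Il1f9 (5 CpGs) the mean was 18.0% in A129-2 and 49.3% in AOS-14. It was 15% and 43.4% at Sptbn5 (5 CpGs), 14.2% and 41.4% at Arl9 (11 CpGs), and 13.6% and 40.1% at Vpreb1 (8 CpGs). By these means the order of the genes was the same in both lines, but by summed reads it was not. By summed reads Sptbn5 stood at 19.9% and Il1f9 at 18.5% in A129-2, and at 45.1% and 49.7% in AOS-14. The A129-2 mean divided by the AOS-14 mean lay between 0.340 and 0.365 for the 4 windows. These ratios were below the 0.632 of all CpGs, as the choice of genes required. All 29 window CpGs were lower in A129-2, and 17 of them by 25 points or more, a size reached by 5.68% of all compared CpGs. At 16 of the 17 the intervals of the lines were also apart, as at 3.96% of all compared CpGs. Since this contrast chose the windows, nothing is read from that count. Over the resolved windows of the series, 67 of 14511 (0.462%) were lower by as much. In a separate count over both ends of every gene with a strand, for windows with at least 5 compared CpGs, 1.99% of 1510 windows at 3′ gene ends and 0.244% of 10649 at 5′ gene ends were lower by as much. At 5′ ends levels were lower in both lines (medians 2.81% in A129-2 and 3.50% in AOS-14, against 6.72% and 9.36% at 3′ ends). Among windows of 25% or more in AOS-14 the shares were 7.92% of 379 at 3′ ends and 11.1% of 234 at 5′ ends.

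**Figure D1:**
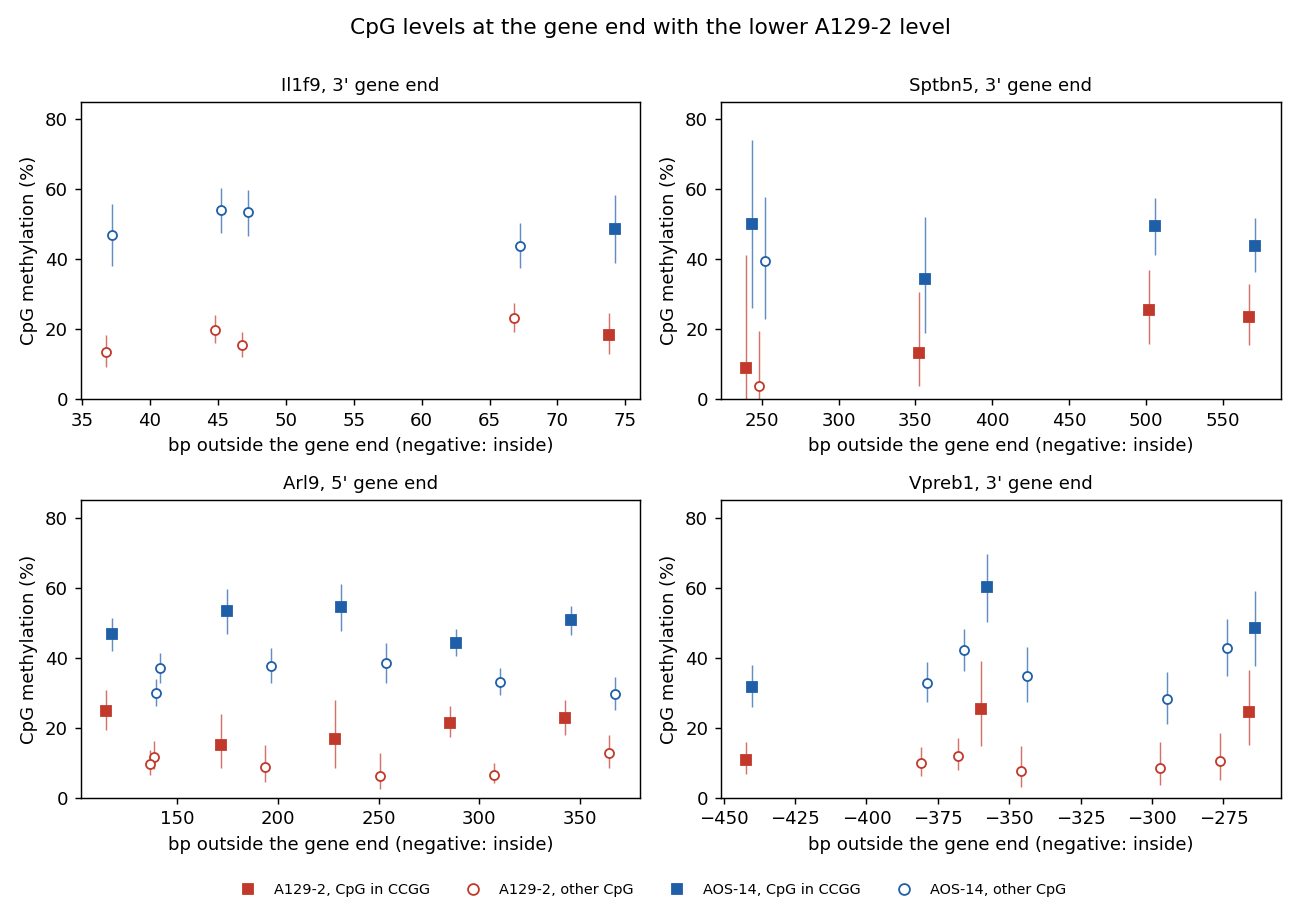
Methylation level of each compared CpG in the end windows of the 4 genes (percent, vertical axis) in A129-2 and AOS-14, with exact 95% intervals of the reads. Each A129-2 point lies below the AOS-14 point of the same CpG, with window means of 13.6% to 18.0% in A129-2 and 40.1% to 49.3% in AOS-14.

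**Figure D2:**
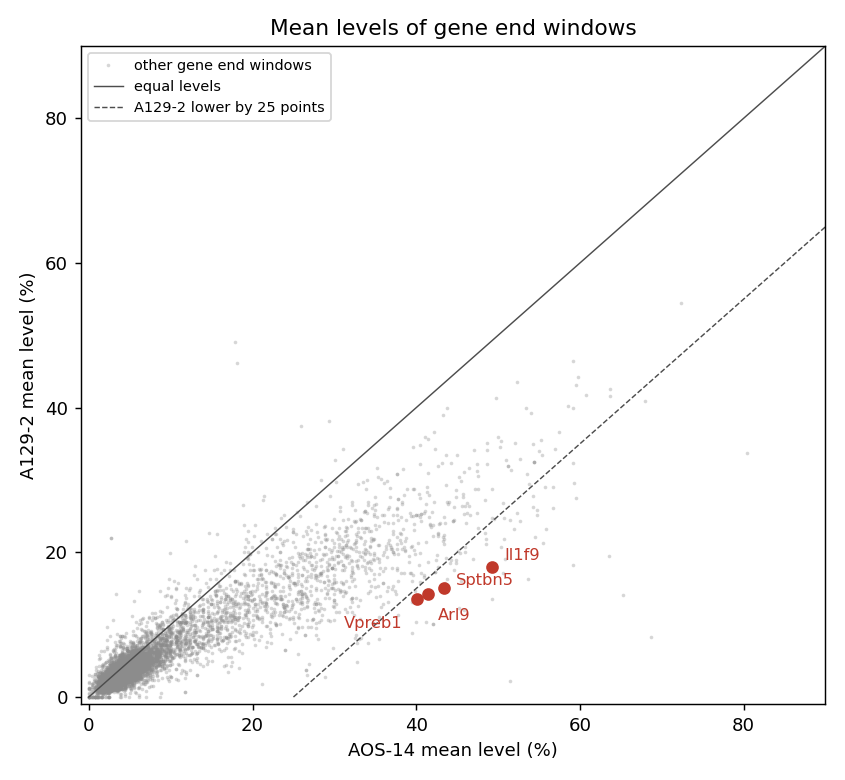
Mean level of each gene end window with at least 5 compared CpGs, A129-2 (vertical axis, percent) against AOS-14 (horizontal axis, percent); the solid line marks equal levels and the dashed line an A129-2 level lower by 25 points. The 4 genes in red lie beyond the dashed line, as they were chosen to, while most windows lie near the origin.

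At Il1f9 the lower level was seen in a short stretch just past the 3′ end, and no compared CpG shows whether it goes further. The 5 CpGs lie 37 to 74 bp outside the gene (chr2:24193604-24193641). The first CpG stood at 13.4% in A129-2 (31 of 232 reads, interval 9.26 to 18.4) and 46.9% in AOS-14 (60 of 128 reads, 38.0 to 55.9). The next CpGs stood at 19.9% and 15.4% in A129-2 and at 54.1% and 53.4% in AOS-14. The last pair stood at 23.2% and 18.3% in A129-2 and at 43.8% and 48.6% in AOS-14. The highest A129-2 value was thus below the lowest AOS-14 value. The intervals of the lines were apart at 4 of the 4 CpGs that differed by 25 points or more, as at 40761 of all 58518 CpGs lower by as much. Since this contrast chose the window, nothing is read from the lack of overlap. The difference of summed reads was -31.2 points (Newcombe 95% interval -34.8 to -27.5).

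The depth at Il1f9 ran against that of the series: A129-2 had 1679 read calls there and AOS-14 961, a ratio of 1.75, where the median ratio over all compared CpGs was 0.806. That ratio lay inside the central 95% of all CpGs, from 0.297 to 2.31. Reads of 50 bp cover several of these neighbouring CpGs at once, so the 5 values are not independent. A further 17 listed CpGs had too few reads in 1 or both lines, and together they gave, from partly different CpGs in each line, 0 of 18 methylated reads in A129-2 (0% to 18.5%) and 6 of 33 in AOS-14 (18.2%, 6.98 to 35.5). At that depth the body of the gene, its start and the rest of the flanks could not be compared.

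At Vpreb1 the lower level lay inside the gene, and the CpGs beyond its 5′ end were close to unmethylated in both lines. The 8 window CpGs lie 265 to 441 bp inside the 3′ end (chr16:16868666-16868842), which is 413 to 589 bp from the 5′ end of a gene of 855 bp. Levels ran from 7.53% to 25.5% in A129-2 and from 28.1% to 60.2% in AOS-14. The ranges did not overlap, in a window that was chosen for its gap. The CpG with the widest gap, 359 bp inside the end, stood at 25.5% in A129-2 (14 of 55 reads, 14.7 to 39.0) and 60.2% in AOS-14 (62 of 103 reads, 50.1 to 69.7). The one with the narrowest, 296 bp inside, stood at 8.42% in A129-2 (8 of 95 reads) and 28.1% in AOS-14 (43 of 153 reads). The difference of summed reads over the window was -26.1 points (-29.3 to -22.9).

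Beyond the 5′ end of Vpreb1 the gap was nearly gone. The 30 CpGs that lie 1346 to 2319 bp before the gene, around the start of the neighbouring topoisomerase gene Top3b, averaged 3.82% in A129-2 and 5% in AOS-14. The 20 CpGs outside CCGG had 8 of 2873 methylated reads in A129-2 (0.278%, 0.120 to 0.548) and 27 of 4392 in AOS-14 (0.615%, 0.406 to 0.893). The 10 CpGs in CCGG averaged 11% in A129-2 and 13.7% in AOS-14, between neighbours that were almost free of the mark. Like values were found elsewhere: at 38889 CCGG CpGs of the series whose neighbours within 50 bp were at 2% or less in both lines, the median was 11.2% in A129-2 and 14% in AOS-14. The cause of this offset was not tested. In the end windows the CCGG CpGs of A129-2 stood between 9.09% and 25.5%.

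At Sptbn5 the compared CpGs reach across the gene, and the mean gap was widest in the window, which was chosen for its gap. With at least 50 reads required, the mean difference was -22.2 points at 2 window CpGs and -13.9 points at 12 CpGs outside the window. Differences of single CpGs in the gene body ran from -21.8 to 6.04 points. Whether the gap changes with distance from the 3′ end was not tested. The 5 window CpGs lie 242 to 569 bp outside the gene (chr2:120040924-120041251). Nearest the gene, 242 bp out, the level was 9.09% in A129-2 (1 of 11 reads, 0.230 to 41.3) and 50% in AOS-14 (9 of 18 reads, 26.0 to 74.0), with intervals that overlap. The CpG 250 bp out stood at 3.85% in A129-2 (1 of 26 reads, 0.0973 to 19.6) and 39.4% in AOS-14 (13 of 33 reads, 22.9 to 57.9), with intervals apart. The remaining 3 CpGs, 354, 504 and 569 bp out, stood at 13.3%, 25.4% and 23.5% in A129-2 and at 34.3%, 49.4% and 43.9% in AOS-14. This window was the shallowest of the 4, with 236 read calls in A129-2 and 415 in AOS-14, and its 2 widest differences rest on the fewest reads. The difference of summed reads was -25.1 points (-31.8 to -17.9).

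Further out from Sptbn5, 8 CpGs from 2387 to 2948 bp past its 3′ end averaged 21.4% in A129-2 and 36.6% in AOS-14. All 8 were lower in A129-2, by 8.5 to 23.2 points, and none by 25. These CpGs and those of the window also lie within Pla2g4b, a phospholipase A2 gene that overlaps the end of Sptbn5, whose 13 compared CpGs averaged 18.9% in A129-2 and 39.2% in AOS-14. The CpGs past the 3′ end of Sptbn5 thus lie outside Sptbn5 and inside Pla2g4b.

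In the body of Sptbn5, which is 47421 bp long, 11 CpGs averaged 19.0% in A129-2 and 27.4% in AOS-14, and 9 of the 11 were lower in A129-2. The CpGs 14263 and 14341 bp inside the 3′ end stood at 18.0% and 26.5% in A129-2 and at 36.2% and 48.3% in AOS-14. Single CpGs 18860 and 23631 bp inside stood at 21.4% and 20% in A129-2 and at 15.4% and 20% in AOS-14, on at most 30 reads, so no gap was detectable there at this depth. The 3 CpGs from 28630 to 28715 bp inside averaged 29.2% in A129-2 and 40.3% in AOS-14. The 4 CpGs nearest the 5′ end, 3770 to 3999 bp inside it, averaged 8.87% in A129-2 and 15.2% in AOS-14. No compared CpG lay closer to the start, so nothing was measured at the promoter of Sptbn5.

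At Arl9 the lower level lay outside the gene's outer boundary and was seen again inside it, at the start site of RefSeq's promoter table. No CpG was compared between these places. The 11 window CpGs lie 116 to 366 bp before the gene (chr5:77002378-77002628). Levels ran from 6.36% to 24.8% in A129-2 and from 29.6% to 54.5% in AOS-14. These ranges did not overlap either, and this window too was chosen for its gap. The widest gap, 173 bp out, was 15.1% in A129-2 (14 of 93 reads, 8.48 to 24.0) against 53.3% in AOS-14 (130 of 244 reads, 46.8 to 59.7). The narrowest, 366 bp out, was 12.7% in A129-2 (27 of 213 reads) against 29.6% in AOS-14 (109 of 368 reads). The difference of summed reads was -25.6 points (-27.6 to -23.6).

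The 3 CpGs of the printed Arl9 promoter lie 1283 to 1344 bp inside the gene boundary and within 33 bp of the start site that RefSeq's promoter table uses (chr5:77004055). The one 28 bp before that site stood at 38.6% in A129-2 (93 of 241 reads, 32.4 to 45.1) and 62.1% in AOS-14 (351 of 565 reads, 58.0 to 66.1). The one 3 bp after it, outside CCGG, stood at 23.0% in A129-2 (101 of 440 reads, 19.1 to 27.2) and 58.4% in AOS-14 (575 of 985 reads, 55.2 to 61.5). The one 33 bp after it stood at 31.2% in A129-2 (63 of 202 reads, 24.9 to 38.1) and 62.4% in AOS-14 (266 of 426 reads, 57.7 to 67.1). Here both lines were higher than in the window, with means of 30.9% and 61.0%, and the gap was -30.1 points. Of the 59 CpGs compared outside the end windows of the 4 genes, the last 2 of these 3 were the only ones lower by 25 points or more.

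Past the 3′ end of Arl9 the gap was absent or too small to resolve at this depth. The 7 compared CpGs near the outer limit of the flank (chr5:77015881-77015958) averaged 3.30% in A129-2 and 4.61% in AOS-14. The 6 outside CCGG had 0 of 229 methylated reads in A129-2 (0% to 1.60%) and 7 of 418 in AOS-14 (1.67%, 0.676 to 3.42). No compared CpG lay between these and the promoter start, so the distance at which the gap ends was not resolved.

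The window CpGs of Arl9 were regularly spaced. The 5 CCGG CpGs, all within the letters acCGg, followed each other at steps of 57 bp, and 8 pairs of neighbouring CpGs of the same motif class had this step. Of 344614 compared CCGG CpGs in the series, 1 opened a set of 5 at a step of 57 bp. That 1 is the Arl9 set itself, from which the step was taken. At any constant step from 20 to 120 bp, 351 (0.102%) opened a set of 5. Reads were 50 bp long, and whether they were placed uniquely in such a sequence was not tested. A129-2 had 2359 read calls in the window and AOS-14 4885, a ratio of 0.483.

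**Figure D3:**
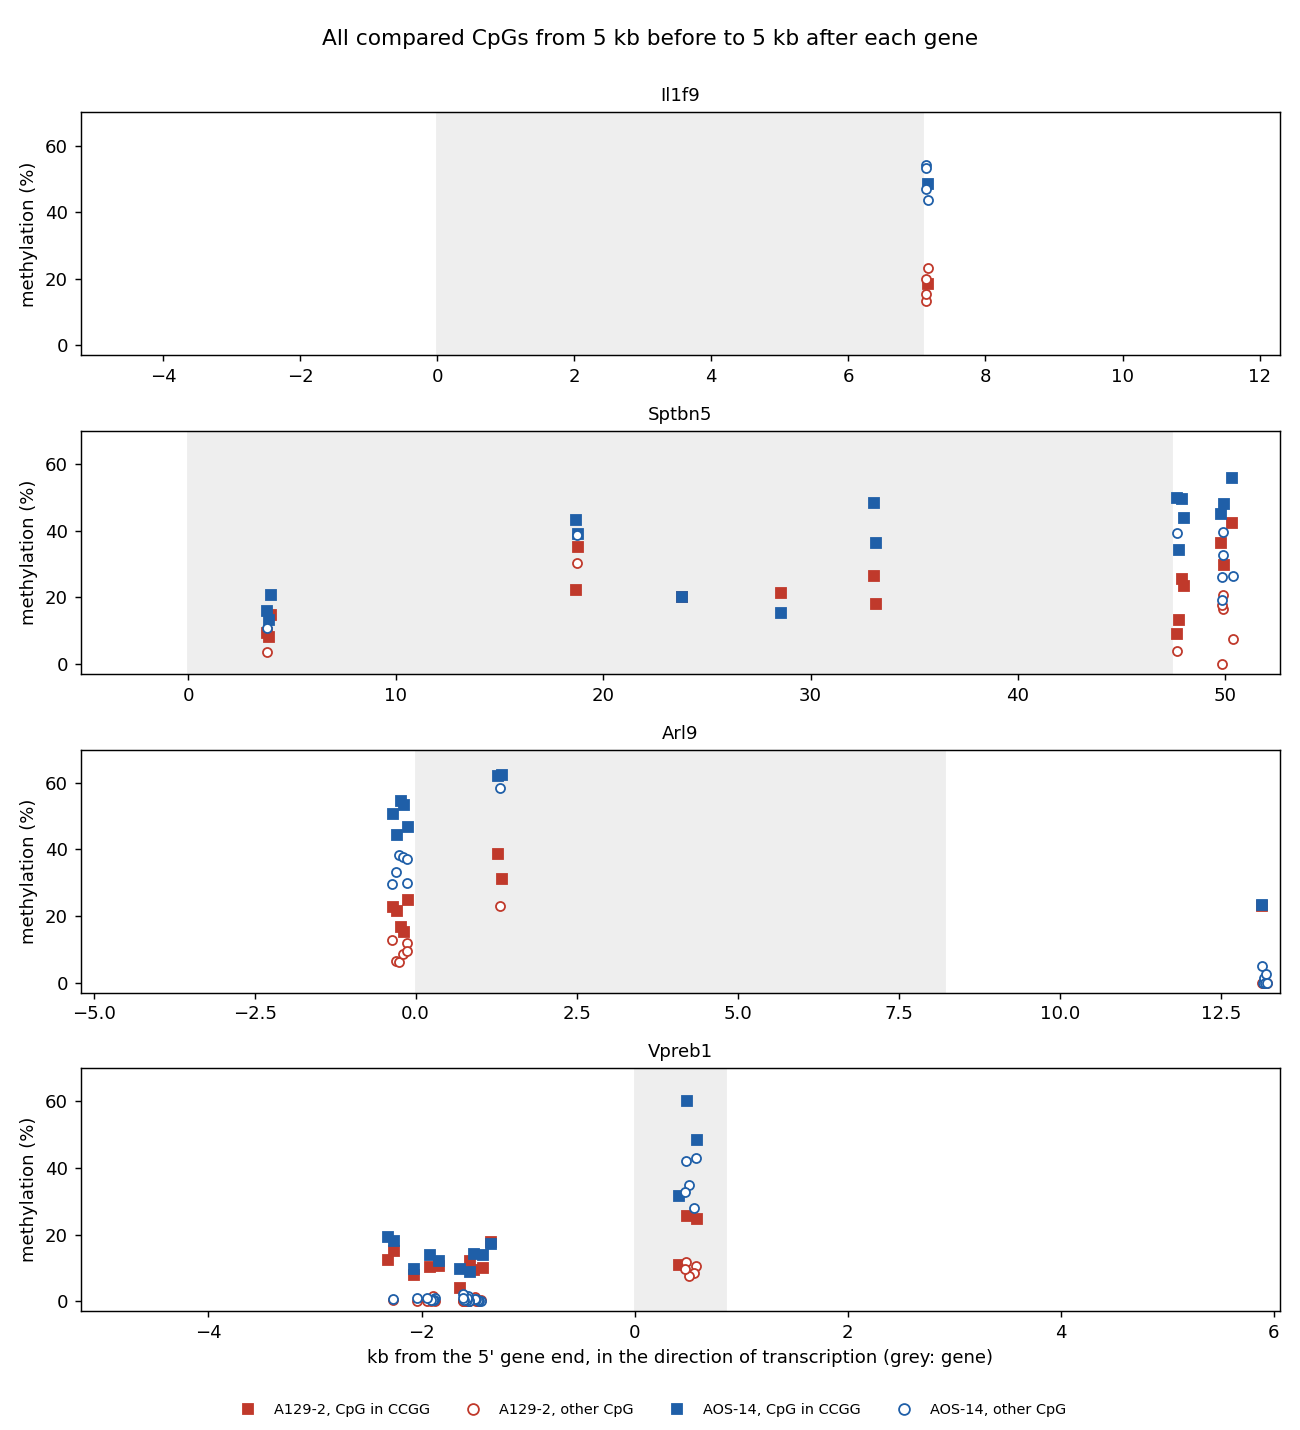
Level of every compared CpG (percent, vertical axis) along each gene, from 5 kb before its start to 5 kb after its end, in A129-2 and AOS-14, with squares for CpGs in CCGG and circles for other CpGs; positions are in kb from the gene's 5′ end and the grey span is the gene. The lower A129-2 level is seen in the end windows, in the body and 3′ flank of Sptbn5 and 1283 to 1344 bp inside Arl9, and not in the near-unmethylated CpGs before Vpreb1 or after Arl9.

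Counted as an unbroken run from the window's side of the gene end, the CpGs lower by 25 points or more numbered 3 at Il1f9 (37 to 47 bp out), 2 at Sptbn5 (242 to 250 bp out), 0 at Arl9 and 0 at Vpreb1. The zeros arise because the CpG nearest the end differed by 21.9 points at Arl9 and by 23.7 points at Vpreb1. With 15 points as the limit the runs covered 5, 7, 14 and 8 CpGs. Runs count compared CpGs only and pass over stretches that were not measured. The Arl9 run took in the promoter CpGs, with no compared CpG between 116 bp outside and 1283 bp inside the gene boundary. The Sptbn5 run took in 2 CpGs 14263 and 14341 bp inside the 3′ end, with none compared between these and the window. The length of a run thus depended on the size asked for. Outside the end windows 45 of 59 CpGs were lower in A129-2, 7 were higher and 7 were equal, where 62.4% of all compared CpGs were lower. Of these 59, 2 were lower by 25 points or more, beside 5.68% of all CpGs.

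A CpG under 25% in AOS-14 cannot be lower by 25 points, so the counts were also made by the level in AOS-14. Of the 44 member CpGs at 25% or more in AOS-14, all were lower in A129-2, where 95.1% of all such CpGs were, and 19 by 25 points or more, where 22.4% were. The 44 take in the 29 window CpGs that chose the genes, which hold 17 of the 19, so nothing is read from the excess. Outside the windows 15 CpGs had such a level, and 2 of them were lower by 25 points or more, both at Arl9. The other 44 CpGs were under 25% in AOS-14, and 30 of them were lower in A129-2, beside 62.4% of all compared CpGs at any level. Nothing is read from that count.

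The lower level was also seen outside CCGG in all 4 windows, at Sptbn5 in 1 CpG. The 16 window CpGs outside CCGG were all lower in A129-2, 11 by 25 points or more. Over all compared CpGs outside CCGG the shares were 53.1% and 4.11%. The 13 inside CCGG were all lower, 6 by as much, where 80.8% and 8.80% of all CCGG CpGs were. Both kinds of CpG entered the window means that chose the genes, so nothing is read from these counts. At Il1f9 the 4 other CpGs averaged 18.0% in A129-2 and 49.5% in AOS-14, beside 18.3% and 48.6% at the 1 CCGG CpG. At Vpreb1 the 5 other CpGs averaged 9.64% in A129-2 and 36.2% in AOS-14, beside 20.3% and 46.7% at 3 CCGG CpGs. The gaps were -26.5 points outside and -26.4 points inside CCGG, although both lines stood higher inside it.

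The same offset was seen at Arl9, where the 6 other CpGs averaged 9.31% in A129-2 and 34.3% in AOS-14 and the 5 CCGG CpGs 20.1% and 49.9%. The gap was -25.0 points outside and -29.7 points inside CCGG. At Sptbn5 the comparison rests on 1 other CpG, with 3.85% in A129-2 and 39.4% in AOS-14, beside 17.8% and 44.4% at 4 CCGG CpGs. With the A129-2 mean divided by the AOS-14 mean, the other CpGs were lower than the CCGG CpGs at all 4 windows, with 0.363, 0.0976, 0.271 and 0.267 for Il1f9, Sptbn5, Arl9 and Vpreb1, beside 0.377, 0.401, 0.404 and 0.434 inside CCGG. Over all compared CpGs the ratio was likewise lower outside CCGG, at 0.559 beside 0.676. Between near-unmethylated neighbours, CCGG CpGs of the series still stood at 11.2% (A129-2) and 14% (AOS-14) in the median. At Il1f9 the levels were close, with 18.3% in A129-2 and 48.6% in AOS-14 inside CCGG and 18.0% and 49.5% outside it. No offset was removed from the levels, and its part in the ratios was not tested. The Il1f9 ratio inside CCGG rests on 1 CpG, and the Sptbn5 ratio outside it on 1 methylated read of 26 in A129-2. Whether the relative gap was wider outside CCGG was not tested.

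Over the whole of the 4 genes and their flanks, 40 of 50 other CpGs and 34 of 38 CCGG CpGs were lower in A129-2, where 53.1% and 80.8% of all such CpGs were. In the same stretches 12 of 50 other CpGs were lower by 25 points or more, where 4.11% of all such CpGs were. Inside CCGG 7 of 38 were, where 8.80% of all CCGG CpGs were. Among CpGs at 25% or more in AOS-14 the counts were 12 of 22 outside CCGG (30.4% of all such CpGs) and 7 of 22 inside it (18.0%). These shares include the window CpGs that chose the genes, so nothing is read from their excess. Outside the windows 24 of 34 other CpGs were lower in A129-2, where 53.1% of all other CpGs were, and 1 of them by 25 points or more.

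**Figure D4:**
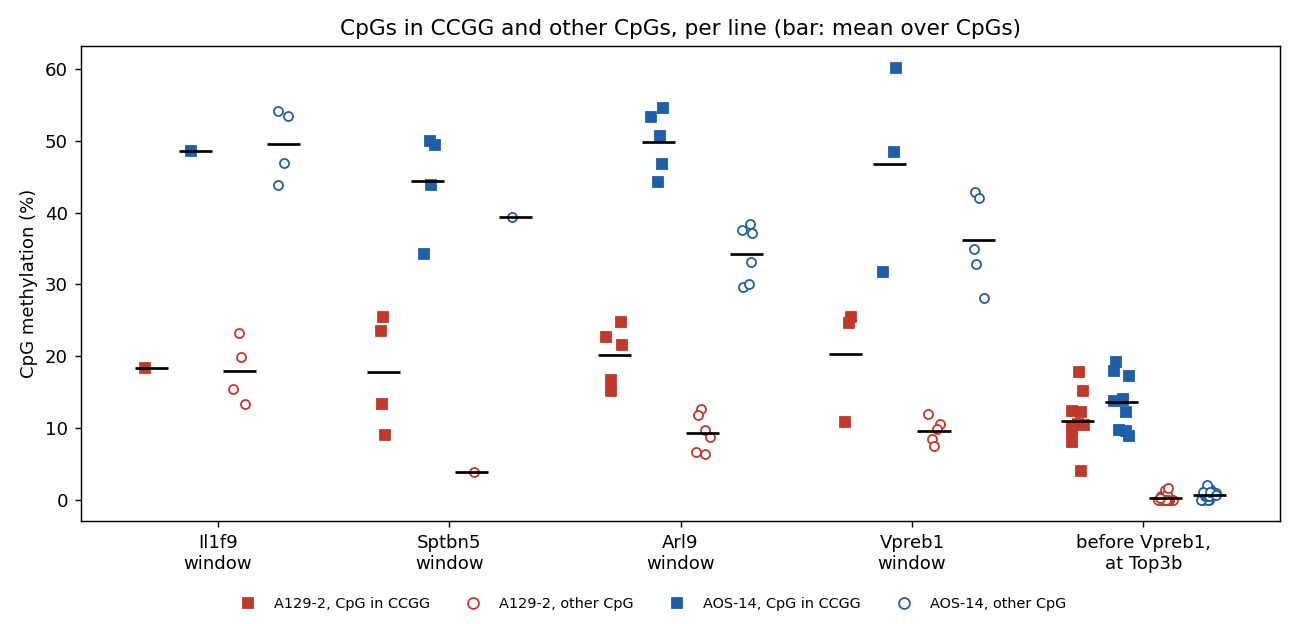
Level of each compared CpG (percent, vertical axis) in the 4 end windows and in the 30 CpGs before Vpreb1, for A129-2 and AOS-14, with squares for CpGs in CCGG, circles for other CpGs and bars for means over CpGs. Outside CCGG the window means were 3.85% to 18.0% in A129-2 and 34.3% to 49.5% in AOS-14, and before Vpreb1 the lines lay close together.

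Forward and reverse reads could be compared where both strands had at least 10 reads in both lines. At Il1f9 3 of 3 such CpGs were lower in A129-2 on both strands, and at Sptbn5 9 of 9. At Arl9 10 of 13 were, and at Vpreb1 10 of 27, where most of the CpGs are the near-unmethylated ones before the gene. With strands added, 62.4% of all compared CpGs were lower in A129-2, and a share by strand was not counted. The counts take in window CpGs that chose the genes, so nothing is read from them. Averaged over the CpGs with enough reads on that strand, the window difference at Sptbn5 was -16.8 points on forward reads and -35.3 points on reverse reads, and at Vpreb1 -21.7 and -32.2 points. In these windows, chosen for their gap, the sign of the mean was the same on both strands. The size was not, and partly different CpGs were read on each.

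Of the other measured genes of the same families and of precursor B cells, 1 was lower in A129-2 by 25 points or more. Over gene and 5 kb flanks, with at least 5 compared CpGs required, 6 of 12 listed interleukin-1 family genes were measured. All 6 were lower in A129-2, 0 by 25 points or more, with medians of 11.6% and 15.9%. The widest gap was that of Il1r1, the receptor of interleukin-1, with 22.7% in A129-2 and 32.6% in AOS-14. Of 6 listed spectrins 5 were measured, all 5 were lower in A129-2 and 0 by 25 points or more, with medians of 7.86% and 10.1%. Of 19 listed ARL GTPases 16 were measured and 15 were lower, 0 by 25 points or more, with medians of 3.45% and 5.24%. Arl15 had the widest gap, with 19.0% for A129-2 and 30.0% for AOS-14. Over all 27756 genes, 96.0% were lower in A129-2 and 1.13% by 25 points or more.

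Of 14 listed genes of precursor B cells 12 were measured, 11 were lower and 1 by 25 points or more, and the medians were 13.0% for A129-2 and 18.2% for AOS-14. That 1 gene was Igll1, the partner of Vpreb1, at 13.6% in A129-2 and 40.1% in AOS-14. Its 8 CpGs are those of the Vpreb1 window, which lies in the flank of Igll1, so it is not a separate observation. The list also holds Top3b, the neighbour of Vpreb1 and not a B cell gene by function, whose flank takes in the same 8 CpGs. Vpreb2, a close copy of Vpreb1, had means of 24.0% for A129-2 and 36.6% for AOS-14 at the 10 CpGs of its 3′ window. Reads of such copies may be split or shared between them, and how they were placed was not tested. Rag1, which cuts antigen receptor genes, stood at 15.9% in A129-2 and 30.2% in AOS-14. Cd79a, a signalling chain of the B cell receptor, stood at 2.79% and 3.62%.

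**Figure D5:**
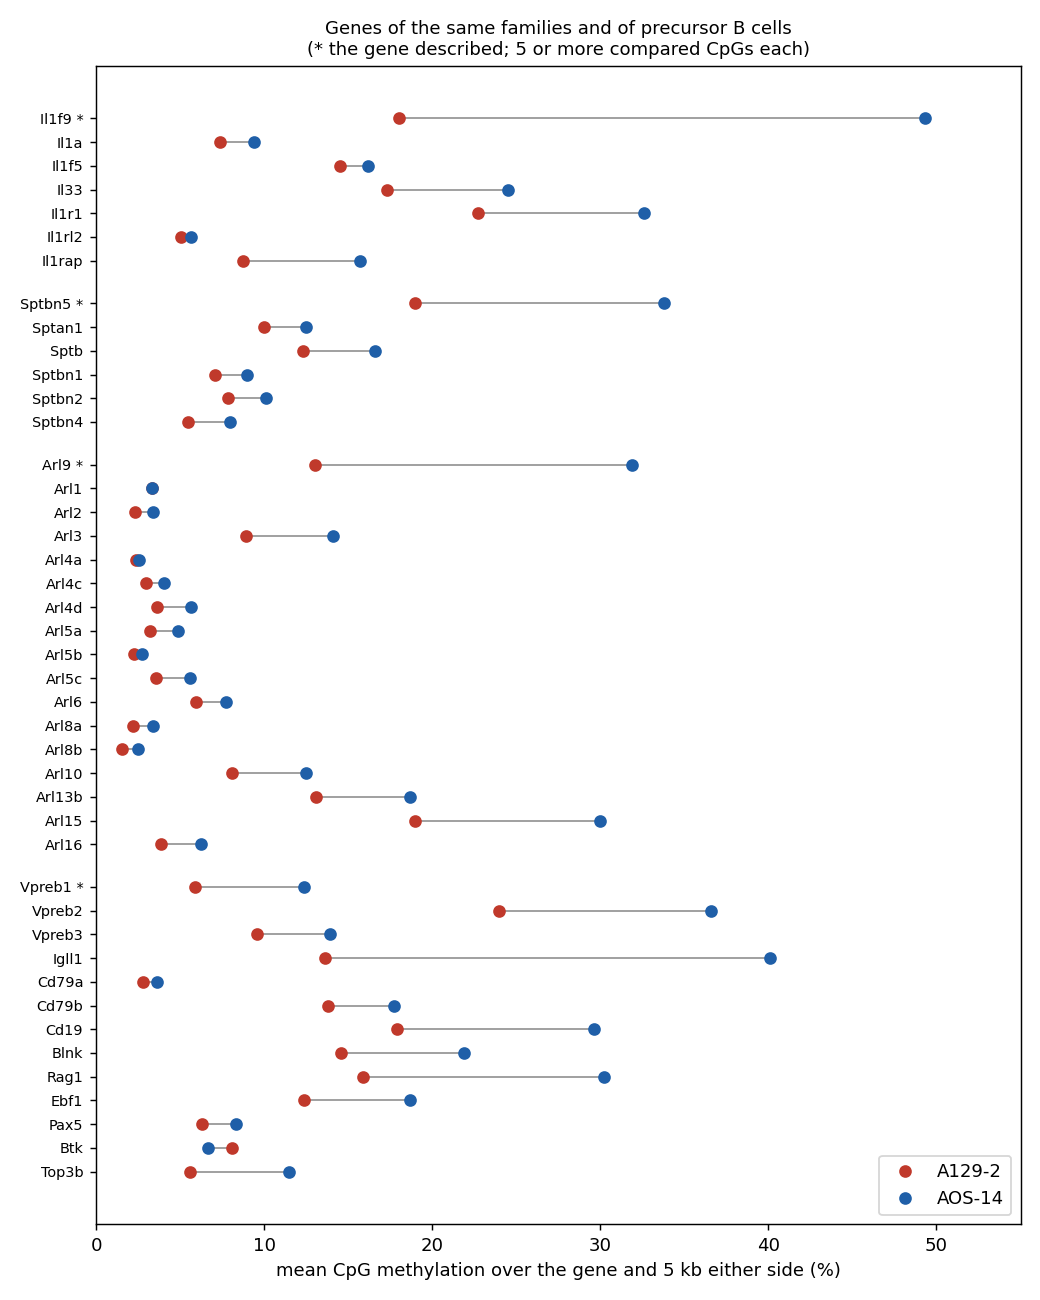
Mean level over the gene and 5 kb either side (percent, horizontal axis) in A129-2 and AOS-14, joined by a line, for the 4 genes (starred) and each measured gene of the 4 related lists. Igll1 has the widest gap of the related genes, 13.6% in A129-2 and 40.1% in AOS-14, from the 8 CpGs of the Vpreb1 window.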

How the data were processed

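Genomic DNA of A129-2 and AOS-14 was measured, with 1 library per line. Alignment with BSMAP to mm10 is named in the submitters' processing notes; trimming, duplicate removal and multiply placed reads are not described in the sources at hand. Per the file headers, the authors gave each CpG a row, and in it they deposited the level as a fraction and the read counts, with both strands added. The fraction equalled methylated over all reads at each of 1699405 rows for A129-2 and 1819756 rows for AOS-14. Levels were recomputed from the deposited counts and are given in percent.

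Gene positions and promoter sequences came from RefSeq's tables for GRCm38.p6, and no genome was used. Of 196379 listed CpGs inside promoter entries, 196379 read CG at their place. CCGG was read from the bases that the tables print around each CpG. CpGs needed 10 reads in both lines, and means are over CpGs. The 4 genes and the related lists were chosen with earlier results of these data known. The text names the 4 genes, their neighbours within 5 kb, related genes lower by 25 points or more or with wide gaps (Il1r1, Arl15, Rag1, Cd79a and Vpreb2 were named after their values were seen), and for each of the 4 the 3 windows nearest in level, of which some are not reported here. With 1 library per line no test was made; exact 95% intervals cover counting error only, and Newcombe intervals are given for differences of summed reads. Alternatives varied the reads required, the strand, weighting, flank, window, size of difference, CCGG, read ratio and possible strain variants. Scripts used scipy 1.17.1, numpy 2.4.6, pandas 2.3.3 and matplotlib 3.10.9 under Python 3.11.15, and the counting was tested on simulated data.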

Additional observations from a re-analysis of the deposited data

Results flagged for a closer look

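Along Sptbn5, 7 CpGs had at least 50 reads in 1 line, at most 1 read in the other, and a level above what a count of 0 allows. None of them entered the comparison. In A129-2 a CpG 39.4 kb from the 5′ end stood at 27.1% (42 of 155 reads; a count of 0 allows up to 1.94%), with 1 read in AOS-14. Another, 17.8 kb from the 5′ end, stood at 31.4% (64 of 204 reads; limit 1.47%), also with 1 read in AOS-14. It lies in CCGG, and its neighbours outside CCGG, 15 bp and 39 bp away, had 0 of 199 and 0 of 201 methylated reads in A129-2. In AOS-14 a group 32.7 to 32.8 kb from the 5′ end stood at 35.8% (19 of 53 reads), 20.3% (13 of 64), 26.2% (17 of 65) and 23.1% (15 of 65), with 0 reads in A129-2. A CpG 27.7 kb from the 5′ end stood at 18.0% in AOS-14 (18 of 100 reads; limit 3%), with 1 read in A129-2. Why these places were covered in 1 line was not tested.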

How the results depend on the processing

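All 174 mean differences computed, over the 4 genes and each alternative that gave a value, stayed below 0, and 206 of 262 values in all moved little. The windows were chosen for their gap and 96.0% of all genes were lower in A129-2, so nothing is read from the kept sign. Leaving out possible strain variants removed no compared CpG, and leaving out uneven read ratios removed any only at Sptbn5. These alternatives could thus change little. The values that moved more follow, in points for mean differences and as numbers of CpGs for counts and runs. Over gene and flanks, Arl9 gave -27.8 with 50 reads and with a 2 kb flank, -21.8 on forward reads, -26.0 weighted by reads, -15.0 without CCGG, -14.3 with a 10 kb flank and -25.8 weighted from 1 read; Sptbn5 gave -12.2 weighted from 1 read; Vpreb1 gave -5.30 on forward and -7.91 on reverse reads. In the end window, Sptbn5 gave -16.8 on forward reads, -35.3 on reverse reads and -35.5 without CCGG, Arl9 -30.1 on forward reads and -25.0 without CCGG, and Vpreb1 -21.7 and -32.2 on forward and reverse reads. Outside the window, Sptbn5 gave -8.42 with a 2 kb flank. Arl9 there gave -30.1 with 50 reads or a 2 kb flank, -26.5 weighted, -26.6 weighted from 1 read, -6.35 without CCGG and -1.32 with a window of 2 kb either side, which takes in its promoter CpGs. Outside CCGG, Arl9 gave -26.5 with 50 reads, -19.6 on forward reads, -25.2 weighted and -25.0 weighted from 1 read, and Vpreb1 -4.45 and -7.00 on forward and reverse reads.

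CpGs past the limit at Il1f9, Sptbn5, Arl9 and Vpreb1 numbered 4, 2, 9 and 4. At 35 points Il1f9 had 1, Arl9 3 and Vpreb1 0; at 15 points Sptbn5 had 12, Arl9 14 and Vpreb1 8. Sptbn5 had 1 with 20 reads, 0 with 50 reads, 0 on forward reads and 1 without CCGG; Arl9 had 5 without CCGG and Vpreb1 2 on forward reads. Runs were 0 at Il1f9 with 5 reads and at 35 points, and 5 at 15 points and for any lower CpG. Those of Sptbn5 were 1, 0 and 0 with 20 reads, 50 reads and forward reads, 7 at 15 points and 15 for any lower CpG. Those of Arl9 were 14 and 16, and of Vpreb1 8 and 8, at 15 points and for any lower CpG, with 1 at Vpreb1 on reverse reads. Weighting from 1 read and runs of any lower CpG were added after seeing the data. The cause was not tested where none is named. No paired analysis was possible because each line has 1 library, which also left no replicate to leave out. Il1f9 has no value outside its window.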

Other observations

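The genes next to the 4 differed in level. Srp72, a signal recognition particle gene that ends 2809 bp before Arl9, averaged 5.39% in A129-2 and 7.85% in AOS-14 at its 38 compared CpGs. Ehd4, 574 bp from the start of Sptbn5, averaged 13.9% and 28.5% over 5 CpGs. Gm52559, a lncRNA inside Sptbn5, averaged 24.8% in A129-2 and 34.4% in AOS-14 at 7 CpGs, all among the Sptbn5 body CpGs given above. 1700112J05Rik, a lncRNA that overlaps the 3′ part of Arl9, averaged 5.89% and 13.1% over 27 CpGs, which take in the 7 past the 3′ end of Arl9. Gm28042, a lncRNA that overlaps Sptbn5 and Pla2g4b, averaged 11.4% and 23.9% over 22 CpGs, which take in the 13 past the 3′ end of Sptbn5. The values of these 3 lncRNAs are thus not separate observations.

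Windows of other genes had levels close to those of the 4, by Euclidean distance in points over the 2 lines. Rpl29-ps5 lay 1.46 points from Il1f9. Rpl7a-ps12 lay 0.804 points from Sptbn5 and Pglyrp1 2.53 points. Nearest to Arl9 were Rpl7a-ps12 at 2.66 points and Pglyrp1 and Ccdc61, read from the same CpGs, at 3.17. Nearest to Vpreb1 were Bco1 at 2.74 points, Igkv15-97 at 3.90 and Rab11b-ps1 at 3.91. Just inside the limit of 25 points lay Hmgb1-rs17, with 8.03% for A129-2 and 33.05% for AOS-14, and just outside it Pglyrp1, at 17.28% and 42.25%.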
